A study of Arabidopsis thaliana with 16 samples.

Results

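The response of Arabidopsis roots to phosphate (Pi) starvation was read from the poly(A)+ RNA of roots grown without Pi (P-) and with Pi (P+), 2 biological replicates each, which are 4 of the 16 libraries of the series. They were chosen by their labels alone, and the response was described across 19743 of the 27206 protein-coding genes and 1382 of the 1641 long noncoding RNA (lncRNA) transcripts in the tables, those that averaged 1 FPKM or more across the 8 poly(A)+ libraries of roots and shoots. FPKM is the number of fragments per kilobase of transcript, scaled by the mapped fragments of the library, so that it can be compared between genes of different length. All plants were wild type Col-0 seedlings, 10 days old, grown on vertical plates of diluted MS medium with 1% sucrose and 1.2% agar at 22 to 24 °C and 16 h light with 8 h dark at 100 µmol m-2 s-1. P+ medium held 1.25 mM KH2PO4 and P- medium held 0.65 mM K2SO4 in its place, so the supply of Pi and that of sulfate differed together. The study sequenced roots and shoots under both conditions, in poly(A)+ and poly(A)- fractions, to find lncRNAs that respond to Pi starvation. The 4 shoot poly(A)+ libraries were used here to share the estimate of the spread and to ask where roots differed from shoots.

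Pi enters the plant through the root, mostly at root hairs and the root tip, and leaves the root through the xylem. Starved roots are known to make more Pi transporters, to secrete phosphatases and nucleases that free Pi from organic matter, and to replace membrane phospholipids with galactolipids and sulfolipids. Much of this runs through the MYB transcription factor PHR1, which binds the P1BS motif and is held back by SPX proteins while Pi is plentiful, and through the microRNA miR399, which lowers the ubiquitin-conjugating enzyme PHO2 and with it the breakdown of Pi transporters.

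The tissue label held. The 13 markers of stomata, leaf epidermis and leaf polarity summed to between 0.331 and 3.88 FPKM in the 4 root libraries against 593 to 1105 FPKM in the 4 shoot libraries, and 7 of them, with FAMA, SPCH and MUTE, were listed at 0 in every root library. Endodermis, xylem, phloem and root tip markers were present in all 4. The 6 xylem markers summed to 385 and 497 FPKM in P+ and 208 and 338 FPKM in P-, with a median change of -0.62 and none called. The root columns are numbered 2 and 3, and the authors' tables of called transcripts show that library 2 is replicate 1, whose label gives an unstranded read setting, and library 3 is replicate 2, with a first-strand setting. The pair differed more than the shoot pairs did. The SD over genes of the log2 difference between both libraries of a condition was 0.86 for P+ roots and 0.64 for P- roots against 0.45 and 0.47 in shoots, and 538 genes were at least 4-fold apart between the P+ root libraries.

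Part of this difference followed the library number in both conditions. At least 4-fold higher in library 2 under both conditions were 41 genes, and 26 were higher in library 3. The first set held the morning clock genes CCA1, LHY and RVE8 and the antenna genes LHCB2.1 and LHCB2.2, and the second the evening clock genes ELF4 and PRR5. CCA1 was at 40.2 FPKM in P+ library 2 and 2.16 in P+ library 3, and at 18.5 and 1.63 FPKM in the P- libraries. ELF4 went the other way, with 19.6 and 336 FPKM under P+ and 35.3 and 399 FPKM under P-. These genes were chosen by that difference, and what else differs between the libraries of a number was not tested.

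**Figure D1:**
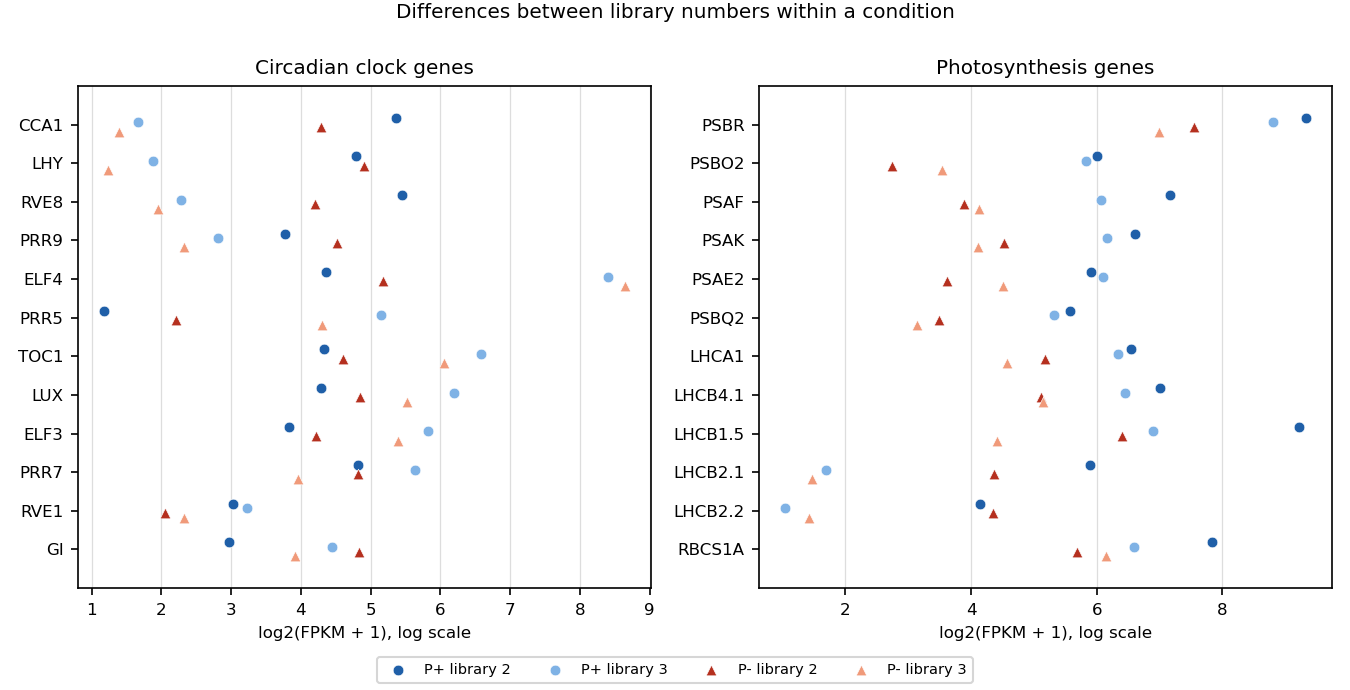
Levels of 12 circadian clock genes (left) and 12 photosynthesis genes (right) in the 4 root libraries, as log2(FPKM + 1). Each row is a gene, circles are P+ and triangles P-, dark symbols library 2 and light ones library 3. Of the clock genes, CCA1, LHY, RVE8, ELF4 and PRR5 part at least 4-fold by library number under both conditions. CCA1 lies at 40.2 and 18.5 FPKM in the libraries numbered 2 and 2.16 and 1.63 FPKM in those numbered 3, whereas PSBO2 and PSAF part by condition.

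Between P- and P+ roots 878 of 19743 genes were called at an adjusted p of 0.05 (4.45%), in a limma fit of log2(FPKM + 1) over the 8 libraries. In P- roots 487 genes rose (2.47% of those tested) and 391 fell (1.98%). The changes were large. Of the rises, 485 were past 1 on the log2 scale, 243 past 2 and 32 past 4, and of the falls 390, 130 and 12, with medians of 2.00 and -1.76 against 0.07 over all genes. In none of the 878 did the P- and P+ libraries overlap, which was the case for 26.2% of all genes with P- above and for 19.2% with P- below. At the threshold of the study, 2-fold with an unadjusted p of 0.05, 7.08% of genes lay above and 5.85% below, and in 2.55% and 1.91% the libraries parted by at least 2-fold between the nearest values, above and below. The risen genes made up 0.955 and 1.1% of all coding FPKM in the P+ libraries and 5.59 and 4.55% in the P- libraries, and the fallen genes went from 4.90 and 5.18% to 1.54 and 1.65%. Roots and shoots shared the estimate of the spread in this fit, although root libraries differed more, so standard errors in roots may be too small. A fit of the root libraries alone called 0 genes, and a fit with library weights called 265. The count also depended on single libraries. It was 3617 without P+ library 3, 211 without P- library 2, 557 without P- library 3 and 780 without P+ library 2, and scaling the libraries to a shared median ratio turned 487 rises and 391 falls into 405 and 500. Of 134 called genes, those named below and in the lists, 70 stayed called without P- library 2, 100 without P- library 3, 110 without P+ library 2 and 131 without P+ library 3, and none changed direction. Since the libraries of these genes do not overlap, leaving a library out could not change a direction. In whole roots a change in the number of cells of a type and a change in RNA per cell cannot be told apart. In what follows, pairs of values are those of library 2 and library 3, in FPKM, and changes are log2 of P- over P+ on FPKM + 1 with their standard error (SE). Adjusted p is taken over all genes tested, and for lncRNAs and single transcripts over all coding and lncRNA transcripts tested.

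The Pi signalling genes held some of the largest rises. Of 11 genes for miR399 mimics and Pi sensing, 6 rose and none fell, with a median change of 1.67. IPS1, a transcript that binds miR399 without being cut and so keeps it from PHO2, was at 3.91 and 1.39 under P+ and 1357 and 957 FPKM under P- (log2 change 8.38, SE 0.37, adjusted p = 3.84e-05). AT4, its relative, was already at 113 and 103 under P+ and reached 2235 and 1994 FPKM under P- (log2 change 4.28, SE 0.26, adjusted p = 1.34e-04). The 2 genes thus started far apart and lay closer together in P-, and AT4 showed one of the largest gains in FPKM of all genes. The paper describes both as lncRNAs. The deposited values list them with the protein-coding genes, and they are counted there in this report. Both hold the miR399 site. The mature miR399b sequence and the site in each RNA are shown because the pairing is what makes a mimic; capitals in the microRNA mark its seed (bases 2 to 8), and capitals in the sites mark bases that pair with it. In each site 3 unpaired bases stand opposite the point where the microRNA would otherwise be paired for cutting. Small letters also mark 3 mismatched bases, at the start of the site and beside the unpaired bases. IPS1's site lies at chr3:3051224-3051247 and that of AT4 at chr5:895149-895172, both on the plus strand and within the part that RefSeq (TAIR10.1) annotates as coding. The level of miR399 itself was not measured in these libraries.
miR399b: uGCCAAAGgagaguugcccug
IPS1 site: ttGGGCAACTtctaTCCTTTGGCA
AT4 site: ttGGGCAACTtcgaTCCTTTGGCA

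The SPX genes encode the sensors that bind PHR1 when Pi is plentiful. SPX3 went from 0.674 and 0.207 to 554 and 335 FPKM (log2 change 8.25, SE 0.32, adjusted p = 3.84e-05), the third largest rise of all named genes. SPX1 went from 36.6 and 16.7 to 1050.0 and 721 FPKM (log2 change 5.08, SE 0.37, adjusted p = 2.85e-04). SPX2 went from 18 and 41.6 to 168 and 142 FPKM (log2 change 2.45, SE 0.41, adjusted p = 0.015). Each of the 3 was higher in P- library 2 than in P- library 3. SPX4, another member of the family, lay lower in both P- libraries, at 5.76 and 9.66 FPKM against 17.5 and 15.0, and missed the test (log2 change -1.02, SE 0.32, adjusted p = 0.12). PHF1, which lets Pi transporters leave the endoplasmic reticulum, rose from 42.3 and 49.7 to 157 and 140.3 FPKM (log2 change 1.67, SE 0.25, adjusted p = 0.0095). The regulators PHR1, PHO2 and NLA did not pass. PHR1 was at 43.8 and 44.0 in P+ and 29.2 and 34.3 FPKM in P- (adjusted p = 0.28). PHO2 was at 48.6 and 90.3 in P+ and 63.1 and 68.5 FPKM in P- (adjusted p = 1.00). NLA, the ubiquitin ligase that acts with PHO2, was at 38.8 and 88.8 in P+ and 24.9 and 29.1 FPKM in P- (adjusted p = 0.13). Of the 6 rises, 4 were called without P- library 2. A neighbour of SPX3 on chromosome 2, the RING/U-box gene AT2G45135, was listed at 0 in both P+ libraries and was at 127 and 103 FPKM in P- (adjusted p = 3.14e-04).

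P1BS motifs, GNATATNC, which reads the same on both strands, were counted from 250 bases before to 50 bases after each RefSeq start. The motif was held by 98 of 485 risen genes, or 20.2% (95% Wilson interval 16.9 to 24.0%), by 14 of 391 fallen genes, or 3.58% (2.14 to 5.92%), and by 6.31% of 19668 tested genes. The intervals cover counting error only and take genes as independent. The share among risen genes was 9.67% without P+ library 3 and 29.2% without P- library 2. Of the risen genes with a motif in this window, 9 were among 13 lipid genes, 7 among 10 phosphatase and nuclease genes, 3 among 7 Pi transport genes and 3 among 6 mimic and sensing genes (AT4, SPX1 and SPX3), whereas the 10 risen glucosinolate genes held none. The 250 bases before the start of 4 risen genes are shown with the motif in capitals: SPX3 (chr2:18606160-18606409, plus strand) with 2 motifs, 213 and 90 bases before the start, the phosphatase gene PS2 (chr1:27466349-27466598, minus strand) with 1 at 217 bases, the transporter gene PHT1;2 (chr5:17415448-17415697, plus strand) with 1 at 42 bases, and AT4 (chr5:894332-894581, plus strand) with 1 at 26 bases. Sequences and starts are from RefSeq (TAIR10.1). Of the 25 genes named for the largest rises or gains in FPKM, 9 held a motif in these bases. PEPC1 and IPS1, with the largest rises, held none there. A match is a match of letters, and PHR1 binding was not measured.
SPX3 upstream: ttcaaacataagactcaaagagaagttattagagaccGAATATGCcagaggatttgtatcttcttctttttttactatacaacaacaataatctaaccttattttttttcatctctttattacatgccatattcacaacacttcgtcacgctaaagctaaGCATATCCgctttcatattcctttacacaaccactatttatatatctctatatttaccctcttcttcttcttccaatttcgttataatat
PS2 upstream: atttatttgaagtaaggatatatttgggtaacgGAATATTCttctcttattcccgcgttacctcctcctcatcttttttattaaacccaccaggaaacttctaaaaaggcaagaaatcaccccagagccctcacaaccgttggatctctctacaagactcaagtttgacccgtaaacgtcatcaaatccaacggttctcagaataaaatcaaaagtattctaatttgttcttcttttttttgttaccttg
PHT1;2 upstream: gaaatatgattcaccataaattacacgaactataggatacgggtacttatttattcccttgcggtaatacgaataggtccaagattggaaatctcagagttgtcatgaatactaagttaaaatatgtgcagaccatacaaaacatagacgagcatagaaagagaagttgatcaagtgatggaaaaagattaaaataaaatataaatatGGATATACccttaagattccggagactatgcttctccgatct
AT4 upstream: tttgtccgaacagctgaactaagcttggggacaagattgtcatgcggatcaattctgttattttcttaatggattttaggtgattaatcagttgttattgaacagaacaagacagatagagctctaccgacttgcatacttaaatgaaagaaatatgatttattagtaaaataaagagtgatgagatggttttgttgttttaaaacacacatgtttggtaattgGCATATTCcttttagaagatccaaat

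Of 12 Pi transport genes, 7 rose and none fell (median 2.56). All risen members but 1 belong to the PHT1 family of plasma membrane Pi importers. PHT1;2 went from 12.5 and 7.94 to 471 and 322 FPKM (log2 change 5.15, SE 0.50, adjusted p = 0.0014). PHT1;4 went from 25.9 and 15.6 to 451 and 223 FPKM (log2 change 3.91, SE 0.39, adjusted p = 0.0015). PHT1;1, the most abundant importer in P+ roots, lay higher in both P- libraries, at 899 and 785 FPKM against 329 and 553, but missed the test (log2 change 0.98, SE 0.30, adjusted p = 0.11). In shoots its change was 3.02, and the tissues differed (interaction adjusted p = 0.038). Values for PHT1;1, PHT1;2 and PHT1;3 are uncertain because the 3 genes are near-identical and stand side by side. The less abundant members rose as well. PHT1;8 was at 1.07 and 1.49 in P+ and 17.4 and 21.5 FPKM in P- (log2 change 3.16, SE 0.32, adjusted p = 0.0016). PHT1;9 was at 4.29 and 1.91 in P+ and 29.6 and 18.4 FPKM in P- (log2 change 2.64, SE 0.39, adjusted p = 0.0088). PHT1;5, which moves Pi between organs, was at 0.607 and 0 in P+ and 22.4 and 8.81 FPKM in P- (log2 change 3.58, SE 0.45, adjusted p = 0.0044). These 3 stayed far below PHT1;1 in every library. PHT1;7 was listed at 0 in both P+ libraries and was at 6.39 and 3.28 FPKM in P- (adjusted p = 0.0085). Of the exporters that load Pi into the xylem, PHO1;H1 rose from 10.6 and 7.24 to 86.1 and 56.1 FPKM (log2 change 2.85, SE 0.33, adjusted p = 0.0030). PHO1 was at 174 and 221 in P+ and 149 and 178 FPKM in P- (adjusted p = 0.56). The plastid importer PHT2;1 had a log2 change of -0.02 (adjusted p = 0.99). The count was 5 without P- library 2 and 9 without P+ library 3.

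Phosphatases and nucleases free Pi from organic compounds. Of 14 such genes 10 rose and none fell (median 2.81), 8 of them also without P- library 2. PEPC1, a phosphatase of phosphocholine and phosphoethanolamine, showed the largest rise of all genes named, from 1.5 and 0 to 958 and 539.9 FPKM (log2 change 8.83, SE 0.46, adjusted p = 8.27e-05). PS2, a pyrophosphatase of the same family, went from 6.59 and 1.84 to 865 and 496 FPKM (log2 change 7.14, SE 0.49, adjusted p = 2.10e-04). Purple acid phosphatases (PAP) and ribonucleases (RNS) were both split between members that rose and members that did not. PAP17 went from 11.1 and 14.7 to 437 and 250.4 FPKM (log2 change 4.59, SE 0.31, adjusted p = 1.92e-04). PAP12, a secreted enzyme, went from 56.8 and 57.7 to 258 and 218 FPKM (log2 change 2.03, SE 0.26, adjusted p = 0.0043). PAP22 went from 4.74 and 6.96 to 74.0 and 32 FPKM (log2 change 2.88, SE 0.43, adjusted p = 0.0094). None of the 3 was near 0 in P+ roots. PAP24 was at 0 and 0.395 in P+ and 12.1 and 17.2 FPKM in P- (log2 change 3.71, SE 0.35, adjusted p = 0.0013). AT1G13750 was at 6.07 and 7.36 in P+ and 61.3 and 41.0 FPKM in P- (log2 change 2.73, SE 0.30, adjusted p = 0.0024). PAP23 and PAP25 were listed at 0 in both P+ libraries and reached 6.78 and 7.22 FPKM (adjusted p = 0.0019) and 2.47 and 2.75 FPKM (adjusted p = 0.018). PAP26 and PAP10 did not pass. PAP26, the main intracellular acid phosphatase, was at 198 and 214 in P+ and 196 and 169.9 FPKM in P- (adjusted p = 0.72). PAP10, the enzyme bound to the root surface, was at 41.2 and 23.8 in P+ and 122 and 49.3 FPKM in P- (adjusted p = 0.15), with both P- values above both P+ values. The study, at its own threshold, lists PAP10 as a marker induced by Pi starvation, in its cluster induced in roots only. Of the ribonucleases, RNS1 rose from 2.02 and 0.690 to 40.7 and 23.7 FPKM (log2 change 3.83, SE 0.42, adjusted p = 0.0024), and RNS2 had a log2 change of 0.75 (adjusted p = 0.20).

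Membrane lipid remodelling had the highest share of risen members among the lists in this fit, 13 of 17 with none falling (median 2.02). With library weights its share was 8 of 17, against 9 of 14 for phosphatases and nucleases. Phospholipids are first cut. The phospholipase C gene NPC4 went from 3.35 and 4.23 to 180.2 and 104 FPKM (log2 change 4.85, SE 0.37, adjusted p = 3.16e-04). The phospholipase D gene PLDZ2 went from 0.433 and 1.84 to 45.2 and 36.7 FPKM (log2 change 4.37, SE 0.37, adjusted p = 6.03e-04). Galactolipids then take their place. MGD3 and MGD2 are the galactolipid synthases used under Pi starvation. MGD3 went from 1.49 and 4.28 to 189 and 163 FPKM (log2 change 5.61, SE 0.37, adjusted p = 1.80e-04). MGD2 went from 1.99 and 2.05 to 59.7 and 43.0 FPKM (log2 change 4.1, SE 0.28, adjusted p = 2.10e-04). MGD1, the enzyme of the chloroplast inner envelope, was at 9.86 and 15.3 in P+ and 20.3 and 26.1 FPKM in P- (adjusted p = 0.16). DGD1 and DGD2, which add the second sugar, rose less, by 1.5 (adjusted p = 0.033) and 1.69 (adjusted p = 0.035). Sulfolipid synthesis rose in all 3 of its steps listed. SQD2 went from 20.8 and 29.4 to 485 and 485 FPKM (log2 change 4.24, SE 0.24, adjusted p = 1.33e-04). SQD1 went from 13.5 and 16.6 to 151 and 124 FPKM (log2 change 3.11, SE 0.24, adjusted p = 3.16e-04). UGP3, which makes their UDP-glucose in the plastid, went from 3.79 and 4.94 to 46.7 and 43.0 FPKM (log2 change 3.1, SE 0.27, adjusted p = 6.19e-04). For SQD2 and UGP3 the root change exceeded the shoot change (interaction adjusted p = 0.0049 and 0.0035). The glycerophosphodiester phosphodiesterase GDPD1 went from 62.9 and 41.3 to 460.2 and 428 FPKM (log2 change 3.1, SE 0.26, adjusted p = 6.03e-04), and GDPD6 from a listing of 0 in both P+ libraries to 4.79 and 1.83 FPKM (adjusted p = 0.038). The count was 8 without P- library 2 and also 8 without P+ library 2.

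**Figure D2:**
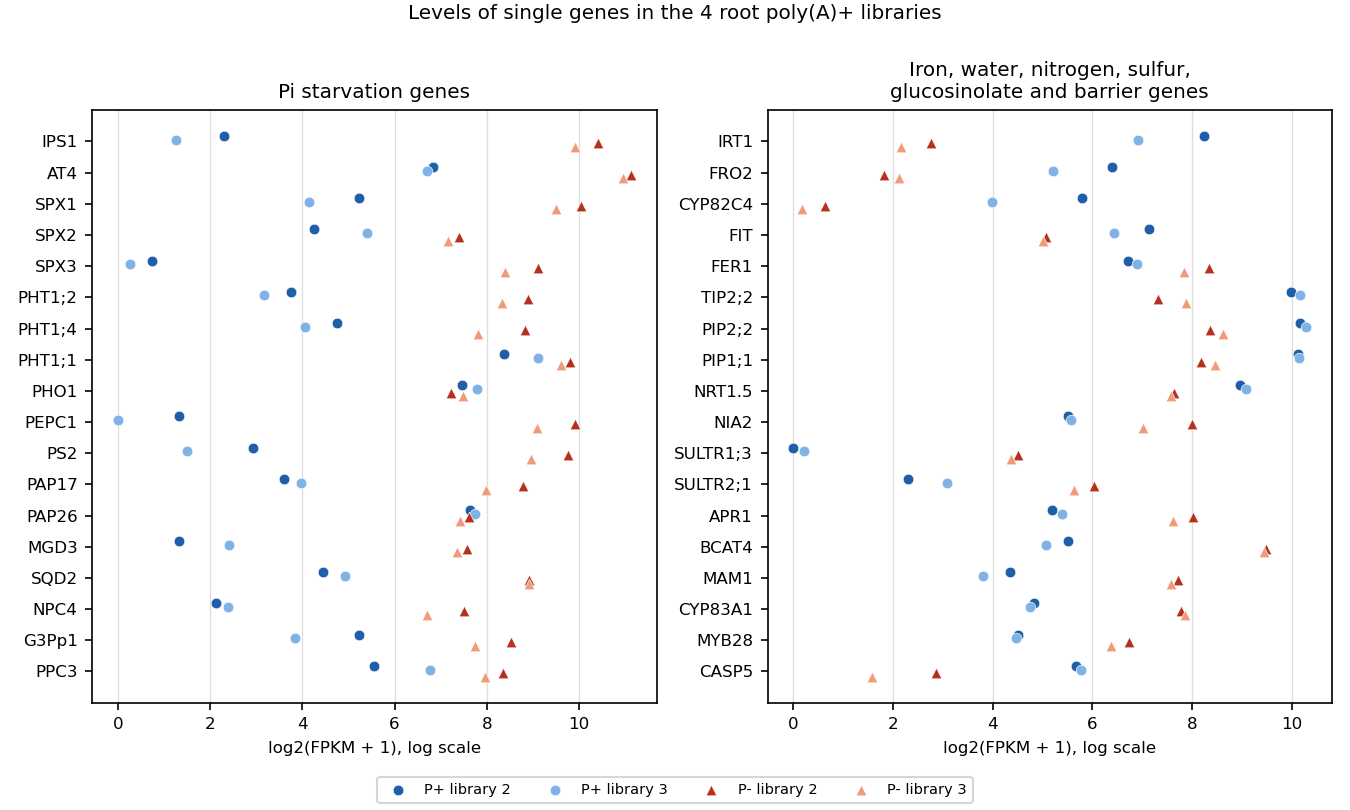
Levels of 18 Pi starvation genes (left) and 18 genes for iron, water, nitrogen, sulfur, glucosinolates and the root barrier (right) in the 4 root libraries, as log2(FPKM + 1). Circles are P+ and triangles P-, dark symbols library 2 and light ones library 3; SPX3 lies at 0.674 and 0.207 FPKM under P+ and 554 and 335 FPKM under P-, IRT1 at 303 and 120.0 against 5.77 and 3.48 FPKM, while PAP26 and PHO1 show overlapping libraries.

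Metabolic steps that spare Pi showed smaller changes. Of 21 genes for carbon metabolism bypasses 9 rose and none fell (median 1.00), 4 without P- library 3 and 0 without P- library 2. G3Pp1, a transporter of the glycerol-3-phosphate permease family, went from 36.5 and 13.4 to 370.1 and 214 FPKM (log2 change 3.60, SE 0.44, adjusted p = 0.0038). All 3 plant-type phosphoenolpyruvate carboxylase genes rose. PPC3, the root isoform, went from 46.2 and 108 to 327 and 248 FPKM (log2 change 2.00, SE 0.38, adjusted p = 0.024). PPC1 went from 122 and 89.0 to 356 and 244 FPKM (log2 change 1.49, SE 0.27, adjusted p = 0.021). PPC2 went from 25.8 and 27.9 to 67.0 and 69.4 FPKM (log2 change 1.31, SE 0.22, adjusted p = 0.014). The 3 changes lay between 1.31 and 2.00. Their kinase gene PPCK1 went from 95.8 and 117 to 470.0 and 285 FPKM (log2 change 1.78, SE 0.30, adjusted p = 0.015). Sucrose synthase SUS4 rose by 2.44 (adjusted p = 0.0067) and the starch gene APL3 by 1.58 (adjusted p = 0.019), whereas SUS1 was at 35.7 and 26 in P+ and 29.5 and 32 FPKM in P- (adjusted p = 0.99). None of the 4 subunits of the pyrophosphate-dependent phosphofructokinase passed, with AT1G12000 nearest at 1.02 (adjusted p = 0.058), and the alternative oxidase gene AOX1A had a log2 change of 0.59 (adjusted p = 0.28).

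Of 14 transcription factor genes tied to Pi starvation 3 rose (median 1.02). Of these, 2 encode subunits of nuclear factor Y. NF-YA2 went from 13.5 and 15.8 to 87.7 and 71.8 FPKM (log2 change 2.36, SE 0.26, adjusted p = 0.0024). NF-YA10 went from 5.14 and 3.99 to 23.8 and 34.7 FPKM (log2 change 2.43, SE 0.37, adjusted p = 0.0096). AT3G25790, a GARP factor of the HRS1 family, went from 13.7 and 21.6 to 59.9 and 44.8 FPKM (log2 change 1.54, SE 0.33, adjusted p = 0.036). HRS1 itself was at 74.8 and 181 in P+ and 113 and 88.7 FPKM in P- (adjusted p = 0.79). WRKY75, a regulator of Pi starvation genes and root hairs, was at 27.9 and 145 under P+, with its P- values of 70.1 and 55.5 FPKM between them (adjusted p = 0.99). Without P- library 2 or without P- library 3 the count was 1, and without P+ library 3 it was 7 up and 1 down.

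Other genes among the 20 largest rises have less direct ties to Pi. OCT1, a carnitine transporter, went from 15.8 and 2.15 to 333 and 220.3 FPKM (log2 change 5.22, SE 0.65, adjusted p = 0.0042). ACA1, here the alpha carbonic anhydrase AT3G52720, went from 0.788 and 0.326 to 82.7 and 82.1 FPKM (log2 change 5.76, SE 0.27, adjusted p = 4.53e-05). The tyrosine aminotransferase TAT3 went from 1.02 and 0.285 to 58.5 and 52.4 FPKM (log2 change 5.13, SE 0.32, adjusted p = 1.55e-04). The peroxidase PRX52 went from 1.90 and 0.127 to 64.0 and 57.9 FPKM (log2 change 5.10, SE 0.43, adjusted p = 6.07e-04). In all 4 genes every P- library stood far above every P+ library. HOL2, a methyltransferase, rose by 4.67 (adjusted p = 1.72e-04). GDU6, of the glutamine dumper family that governs amino acid export, was listed at 0 in P+ and was at 84.4 and 54.2 FPKM in P- (adjusted p = 1.33e-04), and the CHCH domain gene AT5G09570, also listed at 0 in P+, was at 44.8 and 31.6 FPKM (adjusted p = 1.67e-04). AT3G25240 (DUF506) went from 0 and 0.220 to 102 and 108 FPKM (log2 change 6.59, SE 0.29, adjusted p = 3.84e-05). Uncharacterized genes were among the strongest, with AT5G20790 going from 11.8 and 5.64 to 795 and 705 FPKM (log2 change 6.34, SE 0.37, adjusted p = 1.33e-04), and the putative lipoprotein gene AT5G17340 and AT1G08165 rising by 6.01 (adjusted p = 1.55e-04) and 4.94 (adjusted p = 1.34e-04). The largest gain in FPKM of all belonged to AT2G43535, a knottin-like protein, already at 917 and 1432 in P+ and at 3545 and 3603 FPKM in P- (log2 change 1.64, SE 0.29, adjusted p = 0.019). Annexin ANNAT1 went from 407 and 673 to 1619 and 1845 FPKM (log2 change 1.72, SE 0.32, adjusted p = 0.021). The basic chitinase HCHIB went from 204 and 150.4 to 977 and 601 FPKM (log2 change 2.12, SE 0.31, adjusted p = 0.0084).

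Iron uptake genes were among the deepest falls. Roots take up iron by reducing it with FRO2 and importing it through IRT1, under the bHLH factor FIT and the Ib bHLH factors that pair with it. Of 15 uptake genes 5 fell and none rose (median -1.21). IRT1 went from 303 and 120.0 to 5.77 and 3.48 FPKM (log2 change -5.12, SE 0.45, adjusted p = 6.82e-04). FRO2 went from 83.0 and 36.1 to 2.56 and 3.33 FPKM (log2 change -3.83, SE 0.42, adjusted p = 0.0024). FIT went from 139.8 and 85.6 to 32.6 and 31.2 FPKM (log2 change -1.75, SE 0.34, adjusted p = 0.027). The first 3 genes of the uptake system thus fell together. The coumarin genes CYP82C4 and AT3G12900 fell too, CYP82C4 from 54.5 and 15.0 to 0.562 and 0.135 FPKM (log2 change -4.48, SE 0.53, adjusted p = 0.0033). AT3G12900 went from 14.5 and 2.94 to a listing of 0 in both P- libraries (adjusted p = 0.024). F6'H1, an earlier step of coumarin synthesis, was at 94.0 and 104 in P+ and 138 and 94.1 FPKM in P- (adjusted p = 0.72), and the proton pump AHA2 at 501 and 539 in P+ and 482 and 393 FPKM in P- (adjusted p = 0.57). The factor MYB72 was filtered out and was at 2.96 FPKM in P+ library 2 and at or near 0 in the other libraries. Under P+ all 5 fallen genes were higher in library 2 than in library 3.

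Of 17 genes for iron regulation and distribution 3 fell. bHLH38 went from 63.6 and 8.87 to 0.638 and 0.372 FPKM (log2 change -4.07, SE 0.73, adjusted p = 0.019). bHLH101 went from 13.4 and 11.6 to 0.377 and 1.58 FPKM (log2 change -2.84, SE 0.42, adjusted p = 0.0091). bHLH39 and bHLH100 also lay below in both P- libraries, with changes of -2.92 (adjusted p = 0.066) and -3.02 (adjusted p = 0.073) that missed the test. NAS1, a nicotianamine synthase that makes the iron chelator of the phloem, fell from 166 and 157 to 60.7 and 22.5 FPKM (log2 change -2.09, SE 0.41, adjusted p = 0.027). On the storage side, the ferritin gene FER1 rose from 104 and 118 to 324 and 229 FPKM (log2 change 1.29, SE 0.26, adjusted p = 0.033), while FER3 and FER4 had log2 changes of 0.66 (adjusted p = 0.25) and -0.09 (adjusted p = 0.92). Of the 8 falls on both lists 5 were called without P- library 2 and 4 without P- library 3, and the rise of FER1 was not called without P- library 2 or without P+ library 2.

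Aquaporins were the other abundant group that fell. They are the water channels of the plasma membrane (PIP) and vacuole membrane (TIP), and 7 of 19 fell with none rising (median -1.09). TIP2;2 went from 1017 and 1149 to 159 and 236 FPKM (log2 change -2.47, SE 0.28, adjusted p = 0.0027). TIP2;3 went from 427 and 541 to 59.4 and 122 FPKM (log2 change -2.48, SE 0.46, adjusted p = 0.021). TIP1;1 went from 1876 and 1335 to 679 and 627 FPKM (log2 change -1.28, SE 0.27, adjusted p = 0.034). These 3 channels sit in the vacuole membrane, and the other 4 fallen ones in the plasma membrane. PIP1;1 went from 1119 and 1130.2 to 290.1 and 354 FPKM (log2 change -1.81, SE 0.25, adjusted p = 0.0062). PIP2;1 went from 1361 and 1126 to 459 and 449 FPKM (log2 change -1.45, SE 0.26, adjusted p = 0.018). PIP2;2 went from 1157 and 1257 to 328 and 392 FPKM (log2 change -1.75, SE 0.24, adjusted p = 0.0059). PIP2;3, a near-identical neighbour of PIP2;2 with which it may share reads, fell by 2.5 on the log2 scale (adjusted p = 0.0030). PIP1;2, PIP1;3 and PIP2;4 lay below in both P- libraries and missed the test (adjusted p = 0.10, 0.082 and 0.061). PIP2;5 had the highest change, 1.58, and did not pass either (adjusted p = 0.069). The count was 2 without P- library 2 and 5 without P- library 3.

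Nuclear genes for photosynthesis were measurable in these roots, and 11 of 26 photosystem and electron transport genes fell with none rising (median -1.48). PSBO2, of the oxygen-evolving complex, went from 63.5 and 56.1 to 5.72 and 10.6 FPKM (log2 change -2.78, SE 0.32, adjusted p = 0.0029). PSAF, of photosystem I, went from 143 and 66.4 to 13.8 and 16.5 FPKM (log2 change -2.61, SE 0.36, adjusted p = 0.0068). PSBR went from 643 and 448 to 186 and 126 FPKM (log2 change -1.80, SE 0.34, adjusted p = 0.024). PSBQ2, PSAK and PSAE2 fell too, with log2 changes of -2.13, -2.07 and -1.93 (adjusted p = 0.0031, 0.0058 and 0.015). For PSBO2, PSBQ2 and PSAF the root change differed from the shoot change (interaction adjusted p = 0.037, 0.014 and 0.033). Of 18 antenna genes 3 fell. LHCB4.1 went from 128 and 86.6 to 33.6 and 34.3 FPKM (log2 change -1.60, SE 0.30, adjusted p = 0.021). LHCA1 went from 92.0 and 80.2 to 35.0 and 22.8 FPKM (log2 change -1.57, SE 0.32, adjusted p = 0.032). LHCA4 went from 287 and 129 to 69.7 and 26.5 FPKM (log2 change -2.14, SE 0.49, adjusted p = 0.048). The near-identical LHCB1 and LHCB2 genes cannot be separated with certainty, and LHCB2.1 at 58.7 and 2.23 in P+ and 19.6 and 1.77 FPKM in P- followed the library number. Calvin cycle genes held none called among 14 (median -0.05, 6 at an unadjusted p under 0.05, as were 22.0% of all genes), with RCA at 75.3 and 32.8 in P+ and 31.8 and 33.3 FPKM in P- (adjusted p = 0.37) and RBCS1A at 228 and 95.1 in P+ and 50.7 and 70.1 FPKM in P- (adjusted p = 0.12). None of 12 genes for chlorophyll synthesis and greening passed (3 at an unadjusted p under 0.05, close to the 22.0% of all genes), the factors GLK2 and HY5 having log2 changes of -0.96 (adjusted p = 0.14) and -0.57 (adjusted p = 0.57). The summed level of the 26 photosystem genes was 2287 and 1407 FPKM in P+ and 561 and 538 FPKM in P-, and that of the antenna genes 1819 and 707 against 489 and 246 FPKM. The shoot markers summed to 2.72 and 3.88 FPKM in P+ and 0.331 and 3.3 FPKM in P-, and their part in these falls was not tested. Without P- library 2 there were 4 photosystem and 1 antenna genes called, without P- library 3 there were 7 and 0, and without P+ library 2 there were 6 and 0.

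Nitrogen genes moved in both directions, with 1 rise and 2 falls among 21 (median -0.37). NRT1.5, which loads nitrate into the xylem, fell from 498 and 546 to 199 and 191 FPKM (log2 change -1.41, SE 0.23, adjusted p = 0.015). Its shoot change was 1.78, and the tissues differed (interaction adjusted p = 0.0036). The changes of all 6 xylem markers were below 0 too, 5 of them without overlap of the libraries (19.2% of all genes lay below in this way), and their part in this fall and in that of SLAH1, given further on, was not tested. BT2, a BTB protein gene induced by nitrate, fell from 102 and 264 to 21.3 and 53.3 FPKM (log2 change -2.24, SE 0.50, adjusted p = 0.043). The nitrate reductase gene NIA2 rose from 44.7 and 46.7 to 257 and 129 FPKM (log2 change 1.97, SE 0.33, adjusted p = 0.015). The nitrate sensor NRT1.1 and the transport partner NRT3.1 lay below in both P- libraries without passing, with log2 changes of -1.05 (adjusted p = 0.099) and -1.29 (adjusted p = 0.054). BT1 was at 35.4 and 287 in P+ and 6.46 and 31.4 FPKM in P- and parted by library number in both conditions (adjusted p = 0.13). Without P- library 2 none of the 3 was called.

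Pi and sulfate supply cannot be told apart in these roots, since the P- medium held more sulfate. Of 23 genes for sulfate transport, its reduction and sulfur status 8 rose and none fell (median 0.90), 3 without P- library 2 and 4 without P- library 3. SULTR1;3, the sulfate transporter of the phloem, went from 0 and 0.165 to 21.8 and 19.6 FPKM (log2 change 4.33, SE 0.31, adjusted p = 2.69e-04). SULTR2;1, the transporter of the vasculature, went from 3.94 and 7.54 to 64.5 and 48.8 FPKM (log2 change 3.14, SE 0.30, adjusted p = 0.0014). The uptake transporters of the root surface did not pass, SULTR1;1 being at 3.69 and 5.12 in P+ and 5.0 and 4.71 FPKM in P- (adjusted p = 0.85) and SULTR1;2 at 183 and 198 in P+ and 226 and 118 FPKM in P- (adjusted p = 0.73). APR1, the reductase that commits sulfate to assimilation, went from 35.4 and 41.1 to 259 and 197 FPKM (log2 change 2.53, SE 0.25, adjusted p = 0.0014). The ATP sulfurylase APS3 went from 4.84 and 4.53 to 14.2 and 11.7 FPKM (log2 change 1.29, SE 0.26, adjusted p = 0.030). Sulfite reductase SIR went from 120.0 and 127 to 246 and 242 FPKM (log2 change 0.98, SE 0.22, adjusted p = 0.046). LSU2 and LSU1, small proteins induced by low sulfur, rose by 2.57 (adjusted p = 0.016) and 1.58 (adjusted p = 0.046), and SDI1, a repressor of glucosinolate synthesis, by 2.05 (adjusted p = 0.050).

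Glucosinolates are the sulfur-rich defence compounds of the cabbage family, and those made from methionine need its chain to be lengthened first. Of 20 genes 10 rose and none fell (median 1.48), and all 10 belong to the methionine branch. BCAT4, the aminotransferase of the first step, went from 44.6 and 32.4 to 712 and 701 FPKM (log2 change 4.18, SE 0.25, adjusted p = 1.34e-04). MAM1, the chain-elongating synthase, went from 19.3 and 13.0 to 211 and 191 FPKM (log2 change 3.58, SE 0.26, adjusted p = 2.69e-04). The plastid carrier BAT5 went from 28.1 and 8.67 to 113 and 133 FPKM (log2 change 2.89, SE 0.47, adjusted p = 0.014). These 3 act before the core pathway, which turns the lengthened amino acid into the glucosinolate. CYP83A1, of the core pathway, went from 27.5 and 25.9 to 219 and 230.0 FPKM (log2 change 3.03, SE 0.23, adjusted p = 3.45e-04). CYP79F2 went from 31.9 and 18.2 to 160.0 and 106 FPKM (log2 change 2.39, SE 0.36, adjusted p = 0.0093). The pairs MAM1 with MAM3 and CYP79F1 with CYP79F2 are close copies and may share reads. MYB28, the regulator of this branch, rose from 21.7 and 21.1 to 106 and 81.5 FPKM (log2 change 2.07, SE 0.24, adjusted p = 0.0030). The tryptophan branch did not pass, with CYP79B2 at 112 and 69.3 in P+ and 214 and 154 FPKM in P- (adjusted p = 0.089), CYP79B3 at 167 and 97.8 in P+ and 122 and 88.7 FPKM in P- (adjusted p = 0.61), and its regulator MYB34 at 65.8 and 158 in P+ and 106 and 174 FPKM in P- (adjusted p = 0.60). For 7 of the 10 the change differed from that in shoots, where BCAT4, MAM1 and CYP83A1 had log2 changes of -1.39, -1.51 and -0.63 (interaction adjusted p = 0.0010, 0.0016 and 0.0024). Without P- library 2, 5 of them were called in roots.

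Root hair genes lay higher in P- roots almost throughout, though few passed. Of 26 genes for root hair growth, 25 had a change above 0 and 4 rose (median 1.32). XTH26, a wall enzyme, went from 8.26 and 3.17 to 67.7 and 34.8 FPKM (log2 change 3.0, SE 0.51, adjusted p = 0.016). PRP1, a structural wall protein of hairs, went from 9.74 and 5.42 to 87.2 and 34.7 FPKM (log2 change 2.76, SE 0.46, adjusted p = 0.015). RHS19, a peroxidase, went from 77.2 and 64.3 to 273 and 178 FPKM (log2 change 1.63, SE 0.30, adjusted p = 0.020). In 25 of the 26 the P- libraries lay above the P+ libraries, against 26.2% of all genes. RHD2, the oxidase that drives hair tip growth, was at 8.23 and 17.8 in P+ and 47.0 and 30.1 FPKM in P- (adjusted p = 0.070), and the expansin EXPA7 at 59.2 and 121 in P+ and 165 and 142 FPKM in P- (adjusted p = 0.21). The list summed to 1290 and 1493 FPKM in P+ and 3583 and 2277 FPKM in P-. The count was 0 without P- library 2, 11 without P+ library 3 and 13 with 5 FPKM added in place of 1. Of 15 fate and regulator genes only ETC1, an inhibitor of trichome fate that favours hair cells, rose, from 8.77 and 5.28 to 49.3 and 51.8 FPKM (log2 change 2.72, SE 0.35, adjusted p = 0.0048). RHD6 and RSL4, which start and drive hair growth, had log2 changes of 1.29 (adjusted p = 0.068) and 0.43 (adjusted p = 0.75), and the P+ values of RSL4, 6.38 and 41.6, enclosed those of P-.

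The barrier, the tip and dividing cells showed few calls, where 4.45% of all genes were called. Of 23 Casparian strip and suberin genes CASP5, of the membrane platform for the strip, fell from 50.2 and 53.7 to 6.26 and 2.00 FPKM (log2 change -3.50, SE 0.45, adjusted p = 0.0048). In this list 6 genes had an unadjusted p under 0.05, against 22.0% of all genes. The P- libraries lay below in 6 and above in 5, against 19.2 and 26.2% of all genes. The other listed CASP genes were among those below and missed the test. CASP1 was at 370.5 and 524 in P+ and 218 and 227 FPKM in P- (adjusted p = 0.19), and the factor MYB36, which switches the strip on, at 21.3 and 32.7 in P+ and 43.6 and 30.7 FPKM in P- (adjusted p = 0.54). None of 10 root tip genes and none of 30 cell division genes passed. PLT1, PLT2 and WOX5, of the stem cell niche, had log2 changes of 1.08, 1.11 and 0.49 (adjusted p = 0.12, 0.10 and 0.51). The replication gene MCM2, nearest to the threshold, had one of 1.19 (adjusted p = 0.053). At an unadjusted p under 0.05 the counts were 3 of 10 and 7 of 30, against 22.0% of all genes. Most changes nevertheless lay above 0, in 9 of the 10 and 26 of the 30, against 10679 of all 19743 genes. The P- libraries lay above the P+ libraries in 4 of the 10 and 16 of the 30, against 26.2% of all genes. Of the genes tied to growth arrest at the tip, ALMT1, the channel that releases malate, rose from 4.40 and 3.33 to 73.5 and 27.1 FPKM (log2 change 3.24, SE 0.45, adjusted p = 0.0066). The ferroxidase LPR1 was at 1.59 and 3.36 in P+ and 6.47 and 12.4 FPKM in P- (adjusted p = 0.067) and the factor STOP1, which acts above ALMT1, at 101 and 142 in P+ and 122 and 101 FPKM in P- (adjusted p = 0.85).

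Hormone genes showed single members. Of all genes 4.45% were called, and the single calls among the ethylene, auxin and flavonoid genes lie near that share. Of 22 cytokinin genes 3 fell. The response regulator ARR5 went from 64.2 and 64.9 to 26.6 and 21.8 FPKM (log2 change -1.39, SE 0.28, adjusted p = 0.031), and ARR7 from 95.1 and 64.0 to 12.1 and 30.5 FPKM (log2 change -1.96, SE 0.42, adjusted p = 0.036). The synthesis gene IPT3 went from 10.8 and 10.6 to 3.64 and 2.44 FPKM (log2 change -1.55, SE 0.33, adjusted p = 0.036). Of 26 jasmonate genes 3 rose. The allene oxide cyclase AOC1 went from 0 and 0.418 to 26.7 and 17.5 FPKM (log2 change 4.25, SE 0.36, adjusted p = 6.05e-04). AOC3 went from 46.0 and 38.5 to 100.2 and 102 FPKM (log2 change 1.24, SE 0.25, adjusted p = 0.029). The repressor JAZ10 went from 3.19 and 4.34 to 36.9 and 42.5 FPKM (log2 change 3.1, SE 0.32, adjusted p = 0.0019). JAZ10 is one of the genes whose change in shoots went the other way (-2.59, interaction adjusted p = 0.0019). Of 19 ethylene genes ACS7, of ethylene synthesis, rose from 0.683 and 1.49 to 6.56 and 4.84 FPKM (log2 change 1.70, SE 0.35, adjusted p = 0.033). Of 25 auxin genes the repressor IAA3 fell from 36.5 and 54.0 to 13.8 and 20.6 FPKM (log2 change -1.35, SE 0.29, adjusted p = 0.036). Of 18 early stress genes the touch genes TCH2, TCH3 and TCH4 rose, TCH3 from 71.7 and 52.5 to 234 and 207 FPKM (log2 change 1.83, SE 0.26, adjusted p = 0.0071), and in shoots these 3 had log2 changes of -1.75, -1.48 and -2.28 (interaction adjusted p = 0.0078, 0.0051 and 0.0021). Of 15 flavonoid genes MYBL2, a repressor of anthocyanin synthesis, fell from 27.4 and 18.8 to 1.56 and 0.857 FPKM (log2 change -3.44, SE 0.31, adjusted p = 8.96e-04). Chalcone synthase CHS was at 201 and 74.6 in P+ and 188 and 531 FPKM in P-, overlapping between conditions (adjusted p = 0.19). Without P- library 2 the calls of cytokinin, ethylene, auxin and early stress genes were lost, and 2 jasmonate genes and MYBL2 stayed called. None of 14 reference genes and none of 8 cellulose synthase genes was called, with medians of 0.03 and 0.40 and with 1 and 3 at an unadjusted p under 0.05, where 22.0% of all genes lay.

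**Figure D3:**
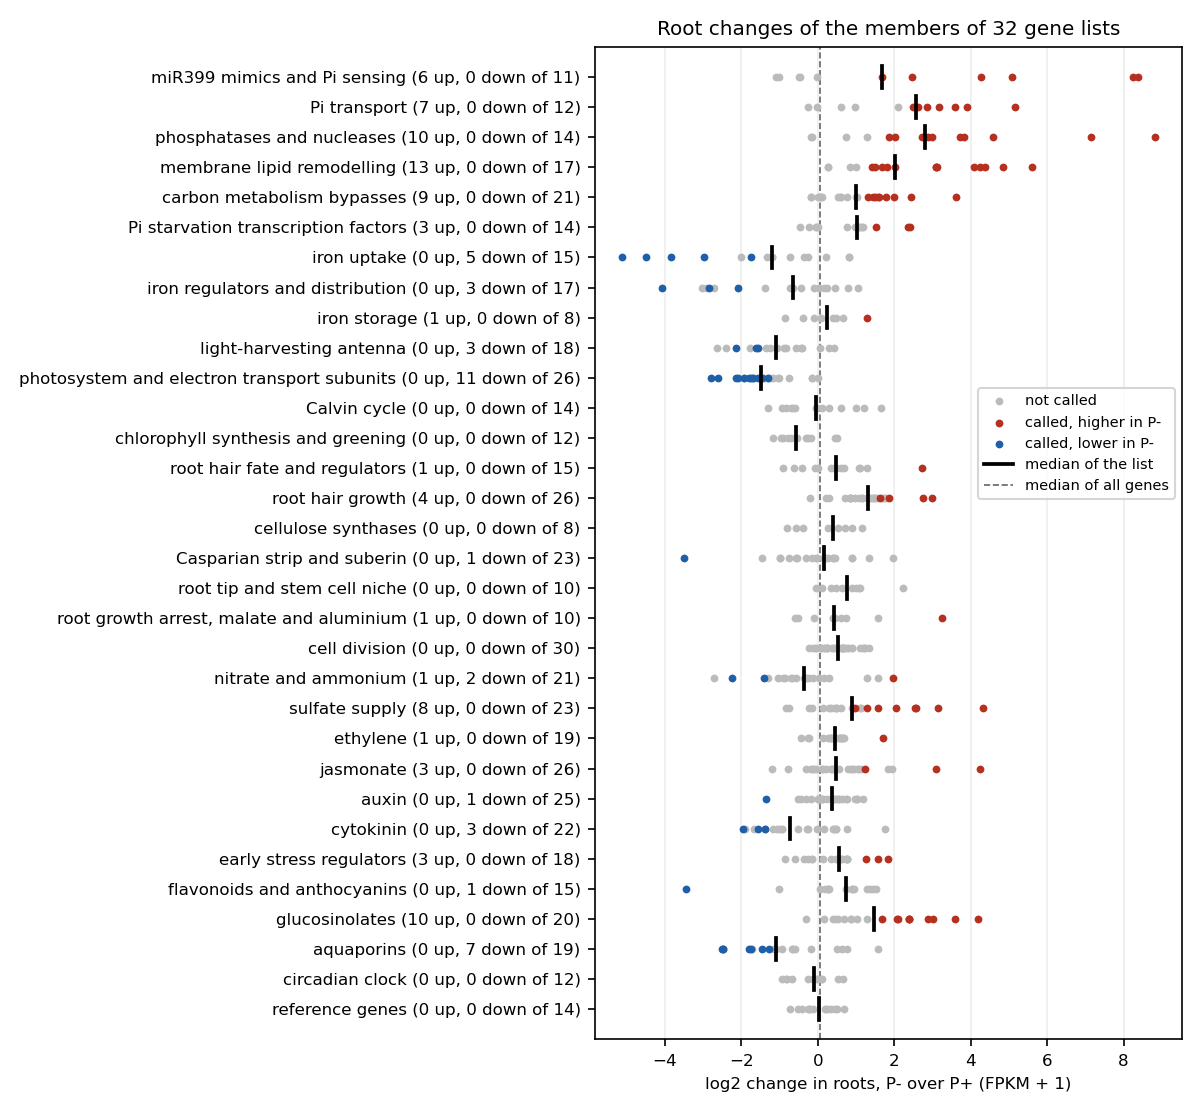
Root changes of the tested members of 32 gene lists, as log2 of P- over P+ on FPKM + 1. Each point is a gene, red where it rose, blue where it fell and grey where it was not called, with black bars at list medians and a dashed line at the median of all genes, 0.07; lipid remodelling has 13 of 17 members called up and photosystem genes 11 of 26 called down.

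Many of the deepest falls were in genes of little known function. AT5G56100, a glycine-rich oleosin-like protein, went from 77.6 and 148 to 1.82 and 1.70 FPKM (log2 change -5.29, SE 0.34, adjusted p = 1.64e-04). AT2G22122 went from 299 and 288 to 22.0 and 24.9 FPKM (log2 change -3.59, SE 0.25, adjusted p = 2.48e-04). AT4G39675 went from 316 and 112 to 6.51 and 8.56 FPKM (log2 change -4.48, SE 0.57, adjusted p = 0.0044). All 3 kept some signal in P- roots. AT4G08360 (KOW domain) was at 25.1 and 32.9 in P+ and was listed at 0 in both P- libraries (adjusted p = 1.55e-04), as was AT1G16515 from 15.2 and 10.5 (adjusted p = 0.048). AT3G05080 went from 51.6 and 6.76 to values near 0 (adjusted p = 0.028). Transport genes were in this set. SLAH1, an anion channel subunit that takes part in chloride loading of the xylem, fell from 38.7 and 64.4 to 1.34 and 4.22 FPKM (log2 change -3.87, SE 0.44, adjusted p = 0.0028), GDU5 fell with a log2 change of -4.07 (adjusted p = 0.0053) and UMAMIT17, of an amino acid exporter family, with one of -3.54 (adjusted p = 0.014). GDU5 and the risen GDU6 are thus glutamine dumper genes that moved in opposite directions. AT3G52070, AT2G34000, AT1G33055, AT1G80440 and AT1G73120 fell with log2 changes of -4.62, -4.01, -3.56, -3.54 and -4.55, each with no overlap of the libraries (adjusted p = 1.86e-04, 3.65e-04, 6.03e-04, 5.01e-04 and 0.0050). AT3G21352 and AT5G44574 fell with log2 changes of -4.92 (adjusted p = 0.024) and -3.72 (adjusted p = 0.045), with wider gaps between the libraries of a condition. In absolute level the largest loss was in MLP329, of the major latex protein family, from 3238 and 2137 to 723 and 610.3 FPKM (log2 change -1.98, SE 0.38, adjusted p = 0.024). PSK4, a precursor of the growth peptide phytosulfokine, went from 670.4 and 1447 to 159 and 109.6 FPKM (log2 change -2.89, SE 0.47, adjusted p = 0.013). AIR1, induced by auxin in roots, went from 767 and 1101 to 137 and 230.2 FPKM (log2 change -2.37, SE 0.38, adjusted p = 0.013). GASA1, a small gibberellin-regulated peptide, and AT3G15450 had log2 changes of -1.53 (adjusted p = 0.035) and -2.44 (adjusted p = 0.023).

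The root response was set against that of shoots with the interaction of tissue and Pi. Root and shoot changes differed in 702 genes (3.56%), with the root change more positive in 324 (1.64%) and more negative in 378 (1.91%). Leaving out a root library moved the count from 113 (P- library 2) and 285 (P- library 3) to 1072 (P+ library 2) and 2645 (P+ library 3). Of the 487 genes that rose in roots 140 also rose in shoots, 39 fell there, and 141 differed between the tissues, where 5.09% of all genes rose in shoots and 3.26% fell. Of the 391 that fell in roots 34 fell in shoots, 19 rose there and 121 differed. Both responses come from the same fit but from different libraries. Of the largest differences, those more positive in roots were ACA1, AK3, FAMT, TAT3, JAZ10, HMT3, BCAT4 and AT4G36850. AK3, an aspartate kinase, was at 13.5 and 7.80 in P+ and 142 and 151 FPKM in P- in roots (log2 change 3.71, SE 0.29, adjusted p = 3.70e-04). The methyltransferase HMT3 was at 4.1 and 3.46 in P+ and 43.2 and 28.5 FPKM in P- (log2 change 2.92, SE 0.31, adjusted p = 0.0022), both in the aspartate to methionine path, and their shoot changes were -2.26 and -2.69. The sucrose exporter SWEET12 went the other way, from 21.1 and 26.1 to 0.850 and 1.59 FPKM in roots (log2 change -3.48, SE 0.26, adjusted p = 3.16e-04), with a change of 1.31 in shoots (interaction adjusted p = 0.0019).

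Some interactions came from genes of root tissue. IRT1 was listed at 0 in all 4 shoot libraries, so its difference of -5.12 is its root change alone. AGP13 and AT4G12520 were high in roots under both conditions, with 475 and 617 in P+ and 445 and 365 FPKM in P- for AT4G12520, and neither root change was called (adjusted p = 0.059 and 0.43). In shoots AT4G12520 went from 0 and 0.329 to 22.9 and 34.1 FPKM. Other root genes were higher in P- shoots in the same way, among them CASP1 with a shoot change of 2.70 and RHS13 with 4.62, and what this contributes to the interactions was not tested. For the Pi signalling genes, AT4 had the smaller change in roots (4.28 against 7.46, interaction adjusted p = 0.0065), and SPX3 and PEPC1 the larger (8.25 against 5.12, adjusted p = 0.014, and 8.83 against 4.40, adjusted p = 0.014), while for IPS1 the difference missed the test (adjusted p = 0.45).

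**Figure D4:**
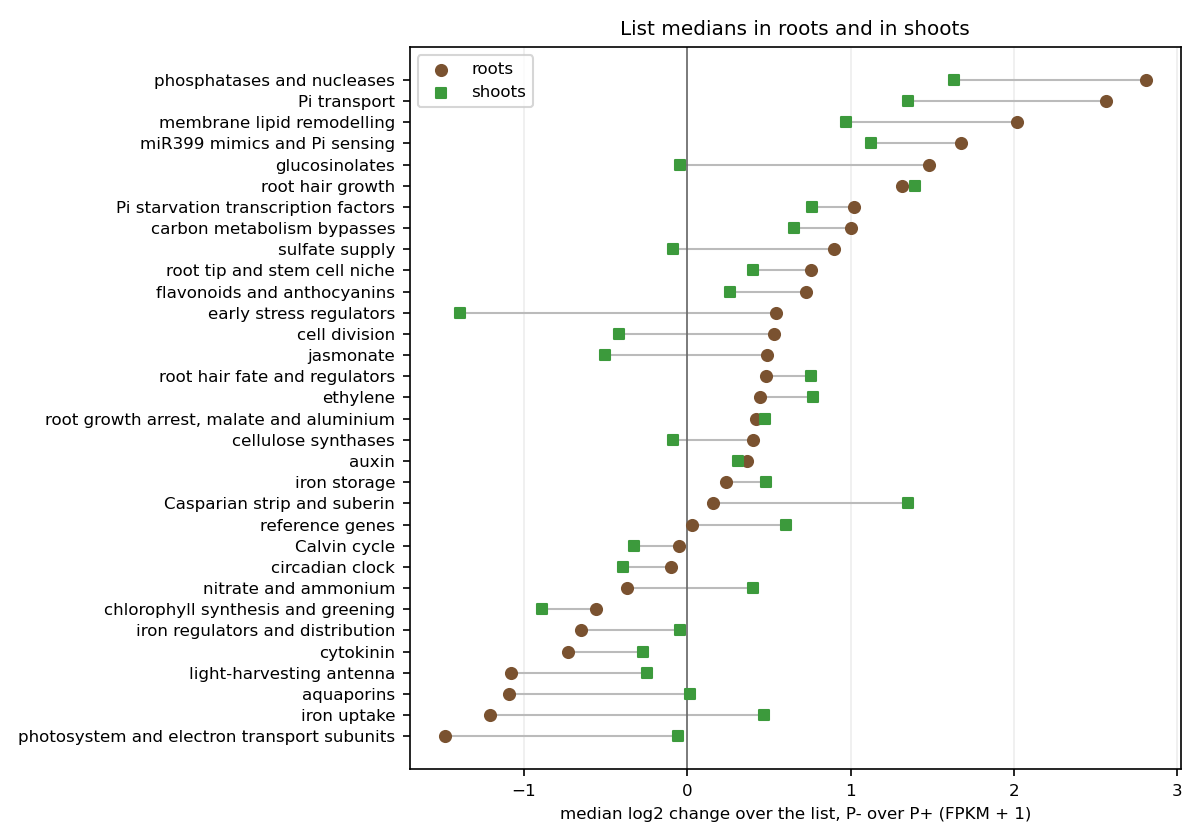
Median log2 change (P- over P+ on FPKM + 1) of each of 32 gene lists in roots (brown circles) and shoots (green squares), joined by a line and sorted by the root median. Phosphatases and nucleases lead in roots at 2.81, and photosystem genes are lowest at -1.48; the medians of 2 tissues are drawn side by side with no test.

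The lncRNAs were followed per transcript at the threshold of the study, a fold of 2 with an unadjusted p of 0.05. Of 1382 lncRNAs 77 rose (5.57%) and 118 fell (8.54%), against 6.55 and 5.34% of 26013 coding transcripts in the same fit. Of TAIR10 lncRNAs 18 of 353 rose (5.1%) and 32 fell (9.07%), and of the lncRNAs assembled by the authors 59 of 1029 rose (5.73%) and 86 fell (8.36%). At an adjusted p of 0.05 only 7 lncRNAs rose and 9 fell. Without 1 root library the count of 195 moved between 167 and 393, the latter without P+ library 3, and it was 123 with 5 FPKM added. The calls were made on low levels, the median lncRNA lying between 4.77 and 5.80 FPKM in the 4 libraries.

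IPS1 and AT4, counted with the coding genes, are not among these lncRNAs, and the gene IPS1 had a log2 change of 8.38. Of the transcripts counted as lncRNAs, the TAIR10 lncRNA AT5G53048.1 showed the largest rise, from 0.586 and 0.243 to 74.9 and 72.5 FPKM (log2 change 5.73, SE 0.43, adjusted p = 0.0030). It lies at chr5:21509861-21511850 on the plus strand, opposite AT5G53050, a hydrolase gene that was at 20.9 and 37.1 in P+ and 27.9 and 25.1 FPKM in P- (adjusted p = 0.92). XLOC_026999 (chr5:13985063-13986339, intergenic) went from 0 and 0.214 to 25.1 and 42.0 FPKM (log2 change 4.93, SE 0.49, adjusted p = 0.010). AT1G21529.1 went from 0.360 and 0 to 40.7 and 19.3 FPKM (log2 change 4.64, SE 0.47, adjusted p = 0.010). These 3 passed the adjusted test and sat at or near 0 in both P+ libraries. XLOC_032181 lies 613 bases from the MIR399c hairpin on the other strand (chr5:24961288-24961872, minus strand). It was listed at 0 in both P+ libraries and was at 21.2 and 17.7 FPKM in P- (adjusted p = 0.010), and 577 of its bases lie opposite ZIP12, a zinc transporter gene. XLOC_030250 went from 1.1 and 0 to 146 and 30.2 FPKM (log2 change 5.55, SE 0.83, adjusted p = 0.035). AT3G12502.1, opposite the risen chitinase gene HCHIB, went from 6.07 and 23.9 to 234 and 160.0 FPKM but missed the adjusted test (adjusted p = 0.072), as did AT1G55525.1, XLOC_005614 and XLOC_026170 (adjusted p = 0.052, adjusted p = 0.11 and adjusted p = 0.14). XLOC_013571, opposite AT2G47550, was at or near 0 in both P+ libraries and at 13.5 and 14.9 FPKM in P- (adjusted p = 0.083).

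Of the 10 largest falls 4 passed the adjusted test. XLOC_006685 went from 29.9 and 48.7 to 0 and 2.36 FPKM (log2 change -4.42, SE 0.65, adjusted p = 0.034). XLOC_008222 went from 23.1 and 23.5 to 3.34e-07 and 1.78 FPKM (log2 change -3.86, SE 0.55, adjusted p = 0.032). XLOC_019368, opposite PSK4, went from 109.8 and 37.2 to 5.29 and 3.93 FPKM (log2 change -3.55, SE 0.52, adjusted p = 0.033). XLOC_023020 went from 16.6 and 34.3 to 1.01 and 1.71 FPKM (log2 change -3.42, SE 0.49, adjusted p = 0.031). XLOC_006685 was higher in P- shoots, with a shoot change of 4.55. The others rest on P+ values that lay far apart. XLOC_016321, opposite PIP2;1, was at 783 FPKM in P+ library 2 and 55.6 in P+ library 3, and at 32.7 and 3.15 FPKM in P- (adjusted p = 0.21). XLOC_027683, opposite the calcium sensor gene CBL9, was at 124 and 12.9 in P+ and at or below the smallest values written in P- (adjusted p = 0.1). AT3G14185.1, XLOC_006103, XLOC_019308 and XLOC_021491 likewise stood far higher in P+ library 2 than in P+ library 3.

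**Figure D5:**
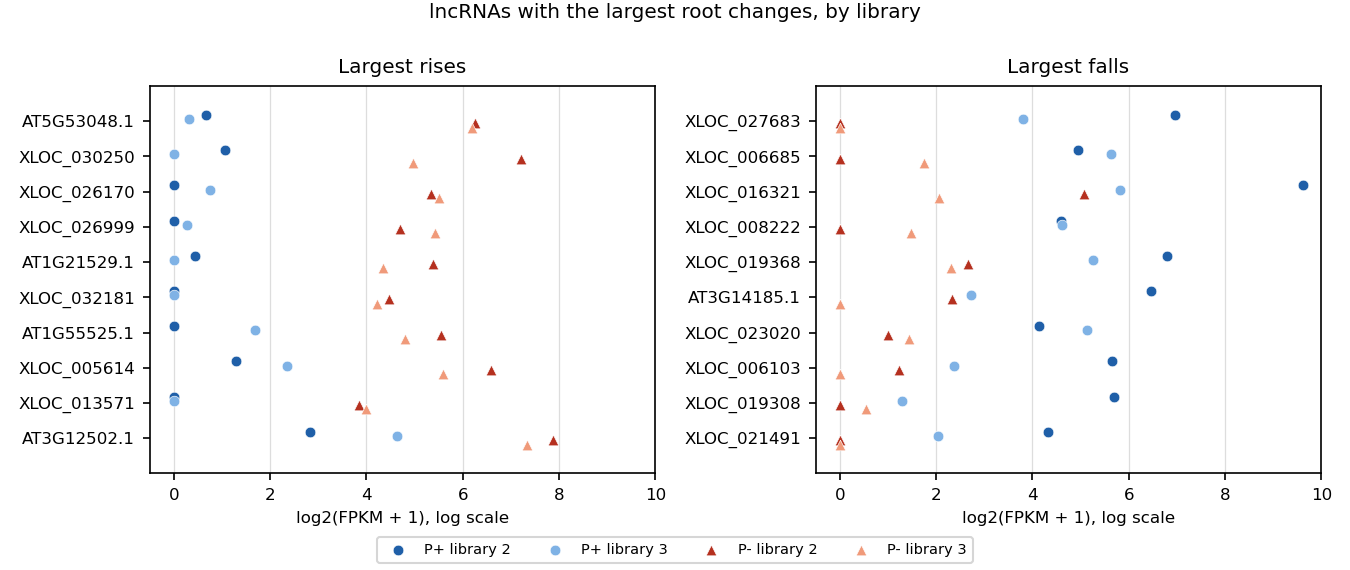
Levels of the 10 lncRNAs with the largest rises (left) and the 10 with the largest falls (right) in the 4 root libraries, as log2(FPKM + 1). IPS1 and AT4 are counted with the coding genes and are not drawn. Circles are P+ and triangles P-, dark symbols library 2 and light ones library 3; the risen lncRNAs sit near 0 in P+ except AT3G12502.1, while among the fallen ones XLOC_016321 spans 783 and 55.6 FPKM within P+.

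Many lncRNAs lie on the strand opposite a coding gene, and the label of library 2 gives an unstranded read setting although the libraries were described as made by a dUTP method that keeps the strand. Whether reads of the partners were mixed in library 2 was not tested directly. The median log2 of library 2 over library 3 was 0.00 in P+ and -0.08 in P- over the antisense lncRNAs, and -0.09 and -0.06 over coding genes. A median over all lncRNAs cannot show whether reads were mixed in single pairs. Of 782 assembled antisense lncRNAs with a tested partner 100 were called, 47 up and 53 down. The partner was called too in 15 of the 100 (15%), against 3.07% over all such pairs, and in all 15 both moved in the same direction. In 81 of the 100 both changes had the same sign, as they had in 63.0% of all 782 pairs. The pairs that fell include CYP82C4, with -2.79 for the lncRNA and -4.48 for the gene, PSK4, with -3.55 and -2.89, and PIP2;1, with -4.15 and -1.45. The pairs that rose were those of CYP94B2, a P450 gene, with 3.21 and 2.36, AT1G78830, and AT2G47550 with 2 lncRNAs. Opposite FER1, the TAIR10 lncRNA AT5G01595.1 (chr5:226972-229286, plus strand) was at 20.9 and 29.4 in P+ and 55.1 and 95.3 FPKM in P-, with a log2 change of 1.51 (SE 0.67, unadjusted p = 0.060) that missed the threshold. It was named after its values were seen, because it is a pair the study takes up. With DESeq2, which could not be run here, the study called this lncRNA induced in roots only. By qRT-PCR it also reported that the lncRNA and FER1 were less induced in a phr1 mutant. The SD of the log2 difference between both libraries of a condition was 1.94 (P+) and 1.36 (P-) over these antisense lncRNAs, against 0.86 and 0.64 over coding genes. The count of 15 was 52 without P+ library 3, of which 9 were opposite in direction, and 1 without P- library 2.

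Transcripts of 1 gene sometimes moved apart. Among 4698 genes with at least 2 tested transcripts, 27 had transcripts past the threshold of the study in opposite directions. In the beta-glucosidase gene BGLU16, AT3G60130.1 went from 3.74 and 37.8 to 104 and 51.3 FPKM and AT3G60130.2 from 104 and 21.6 to 0.0403 and 0.428 FPKM, and the gene as a whole had a log2 change of -0.06. In GLX1, of methylglyoxal detoxification, AT1G11840.2 went from 56.1 and 161 to 409.8 and 373 FPKM and AT1G11840.3 from 229 and 109.8 to 20.6 and 17.9 FPKM. AT1G79990, AT4G18975, DPD1 and TRP1 showed the next largest gaps between transcripts. No transcript of these 6 genes passed an adjusted p of 0.05 (lowest 0.070, for AT3G60130.2), and FPKM divided among overlapping transcripts are estimates that depend on each other.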

How the data were processed

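Poly(A)+ RNA of roots and shoots was sequenced on an Illumina platform from libraries made by a dUTP method. Reads were mapped to TAIR10 by the authors with TopHat2, lncRNAs were assembled with Cufflinks, and the deposited FPKM values per transcript came from eXpress. FPKM hold no read counts, so no counting intervals were given for levels. The columns of 8 libraries of poly(A)- RNA were not used, nor were the authors' columns of log2 P- over P+, of DESeq2 p-values and of cluster numbers. Transcripts were summed to genes. Genes and transcripts averaging 1 FPKM or more across the 8 poly(A)+ libraries were tested on log2(FPKM + 1) with limma 3.58.1 in R 4.3.3 (all 4 groups in a fit, variance trend). Genes and transcripts were fitted separately. The p-values were adjusted by Benjamini and Hochberg at 0.05, over all genes or over all coding and lncRNA transcripts. lncRNAs were called per transcript at 2-fold with unadjusted p of 0.05, the thresholds of the study. The counts, promoters and figures used Python 3.11.15 with numpy 2.4.6, pandas 2.3.3, scipy 1.17.1 and matplotlib 3.10.9. Of the steps, the limma fit of root changes in coding genes was checked on simulated data.

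The root columns carry the numbers 2 and 3 while the labels give replicates 1 and 2. In all 6673 transcripts compared, column 2 holds the values (to a relative difference of 0.0001) of the column named replicate 1 in the authors' tables of called transcripts, and column 3 those of replicate 2. Both are named biological replicates, and the labels do not say how they were separated beyond that.

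Named are the 20 genes per direction with the largest log2 changes among called genes with at least 10 FPKM in a group and no overlap of the libraries, the 10 largest gains and losses in FPKM, up to 6 members of each list by p with its defining members, 10 lncRNAs per direction with at least 2 FPKM, 8 differences from shoots per direction and 6 genes by isoforms. The members and the gene lists were chosen with earlier results of these data known. Sequences, gene starts and products are from RefSeq (TAIR10.1). The alternatives were 0.1 or 5 FPKM added, no filter or at least 5 FPKM, roots alone, library weights, libraries rescaled to a common median ratio, no variance trend, the highest transcript per gene, a block by column number, other thresholds, a P1BS window of 200 bases before the start, and each root library left out in turn.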

Additional observations from a re-analysis of the deposited data

Results flagged for a closer look

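The Pi response differed between roots and shoots in 702 genes by the interaction of tissue and Pi (limma, adjusted p of 0.05), and the 8 largest differences in each direction are given here as root change minus shoot change on the log2 scale. More positive in roots were ACA1 (AT3G52720) with 6.33, the aspartate kinase AK3 with 5.97, the methyltransferase FAMT with 5.88, the tyrosine aminotransferase TAT3 with 5.81, the jasmonate repressor JAZ10 with 5.69, the homocysteine methyltransferase HMT3 with 5.61, the glucosinolate gene BCAT4 with 5.57 and AT4G36850 with 5.31. All 8 rose in roots, and their shoot changes lay below 0, from -2.69 (HMT3) to -0.57 (ACA1).

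More negative in roots were AT4G39675 with -5.68, AT3G56730 with -5.36, the arabinogalactan gene AGP13 with -5.34, the glutamine dumper gene GDU5 with -5.12, IRT1 with -5.12, AT4G12520 with -5.08, AT4G08360 with -4.90 and the sucrose exporter SWEET12 with -4.79. IRT1 and AT4G08360 were listed at 0 in all 4 shoot libraries, so their differences are root changes. AGP13 and AT4G12520 were not called in roots (adjusted p = 0.059 and 0.43), and their shoot changes were 3.38 and 4.65. AT3G56730 fell in roots from 89.5 and 48.4 to 21.4 and 14.6 FPKM and had a shoot change of 3.52. The differences of AT4G39675 and GDU5 were not called with 0.1 FPKM added, nor those of AT4G39675 and AGP13 without P- library 2.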

How the results depend on the processing

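The fit of the root libraries alone called 0 coding genes (limma, lowest adjusted p 0.0856), 0 list members and 0 antisense pairs with a called partner, although 989 genes rose and 819 fell in it past a fold of 2 at an unadjusted p of 0.05, so the calls rest on the spread shared with the shoots. With library weights the counts were 265 coding genes, 110 lncRNAs, 61 list members and 1 antisense pair, and the P1BS share was 25.0%. The thresholds of the study gave 2552 coding genes, and an adjusted p of 0.05 gave 16 lncRNAs. With 5 FPKM added there were 123 lncRNAs and 520 genes (881 with 1 FPKM added) whose libraries did not overlap and lay at least 2-fold apart, with 0.1 FPKM added 9 antisense pairs, with at least 5 FPKM 113 lncRNAs and 8 pairs, and with 200 bases before the start alone a P1BS share of 13.6%.

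Leaving out a root library leaves 1 in its group, taken to vary like the others. Coding genes called then ranged from 211 to 3617, lncRNAs from 167 to 393, differences from shoots from 113 to 2645, list members from 53 to 212 (118 with all libraries), antisense pairs from 1 to 52, genes without overlap from 1530 to 3620 and the P1BS share from 9.67 to 29.2%, with P- library 2 and P+ library 3 mostly at the ends. The column numbers were taken as no pairing: the differences between libraries 2 and 3 correlated at 0.17 between P+ and P- over 19743 genes. A replicate block by these numbers gave 849 coding genes, 236 lncRNAs, 638 differences from shoots, 121 list members (7 in place of 3 antenna, 13 in place of 11 photosystem and 1 in place of 3 cytokinin genes), 15 antisense pairs and a P1BS share of 20.5%, and 124 of the 134 named calls were kept. Of these 134, 113 were kept with 0.1 FPKM added, 132 with 5 FPKM, 126 with the highest transcript, 120 with no filter and 82 with library weights. None changed direction under any setting. As the libraries of these genes do not overlap, only rescaling and the highest transcript could have changed one. Rescaling moved the median change of all genes from 0.07 to -0.03. DESeq2 could not be run on FPKM. Differences in genes and lncRNAs of a few FPKM are the least certain, since their reads are not known.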

Other observations

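Beyond the lists, gene families were read from the RefSeq product names, for families with at least 20 tested genes, and chosen after their values were seen. Of 52 class III peroxidases, enzymes that cross-link or loosen cell walls, 10 rose and none fell, with a family median of 0.28 against 0.07 over all genes. AT3G49960 went from 18.9 and 23.6 to 154 and 106 FPKM (log2 change 2.54, SE 0.30, adjusted p = 0.0033). Prx37 went from 26.5 and 50.5 to 203 and 124 FPKM (log2 change 2.09, SE 0.40, adjusted p = 0.026). AT4G36430 went from 82.1 and 31.7 to 268 and 157 FPKM (log2 change 1.98, SE 0.44, adjusted p = 0.040). In all 10, P- library 2 was higher than P- library 3. Of 71 UDP-glycosyltransferases, which attach sugars to small molecules and lipids, 5 rose and none fell, with DGD1 among them. GDSL lipases had 6 rises and 1 fall among 47, and alpha/beta-hydrolases 10 rises and 3 falls among 155.

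Other families held more falls than rises, without a test. Of 205 RING/U-box genes, many of which encode ubiquitin ligases, 10 fell and 2 rose. Of 35 UPF0497 genes, the family of the Casparian strip proteins, 3 fell and none rose, among them CASP5 and AT3G06390, which went from 195 and 194 to 60.9 and 87.9 FPKM (log2 change -1.40, SE 0.30, adjusted p = 0.038). Of 1098 genes annotated as uncharacterized proteins 35 fell and 12 rose, where 1.98% of all genes fell and 2.47% rose. Lipid-transfer proteins were split, with 5 rises and 5 falls among 60.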
